A study of Triticum aestivum with 96 samples.

Results

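In flag leaves of Mace, an Australian cultivar of bread wheat (Triticum aestivum), 150 genes were selected because their 24 h rhythm was large in senescent leaves and small in mature leaves. They were taken from 139118 genes in the deposited table, of which 20577 had a mean scaled count of at least 50 in both stages. For each gene and stage, log2(scaled count + 2) was fitted by a 24 h cosine curve (a cosine plus a sine) with a straight line in time, and the peak-to-trough was the difference in log2 between the top and the bottom of the fitted 24 h curve. Genes with a peak-to-trough of at least 1 log2 in senescent leaves and under 0.6 log2 in mature leaves were kept, which gave 188 genes, and the 150 with the largest senescent minus mature difference formed the set. Because these fitted values chose the genes, their peak-to-trough values, peak times and rhythm calls are given as a description and carry no test.

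The series measured RNA by sequencing in 96 libraries of whole flag leaf, 48 from mature plants at ear emergence and 48 from senescent plants whose flag leaves were visibly losing chlorophyll. Both stages grew in 1 room under a cycle of light and dark, from sowings 28 days apart, and were moved at dawn (Zeitgeber time 0, ZT0) to continuous light at 20 °C. Leaves of both were cut side by side every 2 h from ZT45 to ZT91, with 2 libraries per stage and time, each from an equal RNA pool of 2 leaves. Stage and sowing batch coincide and cannot be told apart, and a whole leaf mixes cell types, so fewer cells of a type and less RNA per cell cannot be told apart either.

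Plants keep daily rhythms of gene expression in constant light through the circadian clock, a network of transcription factors that repress and activate one another and time output genes to particular hours of the subjective day. Leaf senescence is the regulated last phase of leaf life, in which chloroplasts are dismantled and nitrogen and minerals are moved to the grain. The identifiers of the Mace annotation are not paired with gene names in the files, and 0 of them matched the gene table used here. Members are therefore named by identifier, with the chromosome that the identifier carries, and no function is assigned to any of them. Reads of near-identical A, B and D copies could have been split between members and genes outside the set, and counting by strand is not given in the sources used here.

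Totals of scaled counts ran from 6406950 to 8919170 in mature and from 5592100 to 7616500 in senescent libraries, which corresponded to an estimated 4789060 to 11831500 reads. The 150 members made up 0.596 to 0.822% of the total in mature libraries and 0.656 to 0.833% in senescent ones. Correlation of a library with the mean of its stage had a median of 0.949 in mature and 0.952 in senescent leaves. It was lowest in the mature ZT91 replicate 1 library (0.864), the mature ZT45 replicate 2 library (0.865), the senescent ZT45 replicate 1 library (0.900) and the senescent ZT77 replicate 1 library (0.921). Without these 4 libraries, 103 of the 150 members still passed both thresholds. When all ZT45 and ZT91 libraries were left out, 95 did.

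The peak-to-trough of the members had a median of 1.16 log2 in senescent leaves, with a range of 1.00 to 1.95, against 0.46 log2 in mature leaves, with a range of 0.04 to 0.60. The difference had a median of 0.74 log2 and ran from 0.53 to 1.59. All 150 members were called rhythmic in senescent leaves (limma, adjusted p under 0.05), where 66.6% of the 20577 genes were. In mature leaves 87 members were called rhythmic as well, beside 63.7% of the 20577, so for those 87 the rhythm was larger in senescent leaves rather than absent before. The other 63 were not called in mature leaves. The difference in rhythm itself was called, with the larger amplitude in senescent leaves, for 119 members, beside 9.74% of the 20577, and was not called for 31. These 3 calls use the values that chose the genes and are printed only as a description. The set also depended on the scaling: with each library scaled to its own total in place of the authors' scaling, 78 members passed both thresholds.

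**Figure D1:**
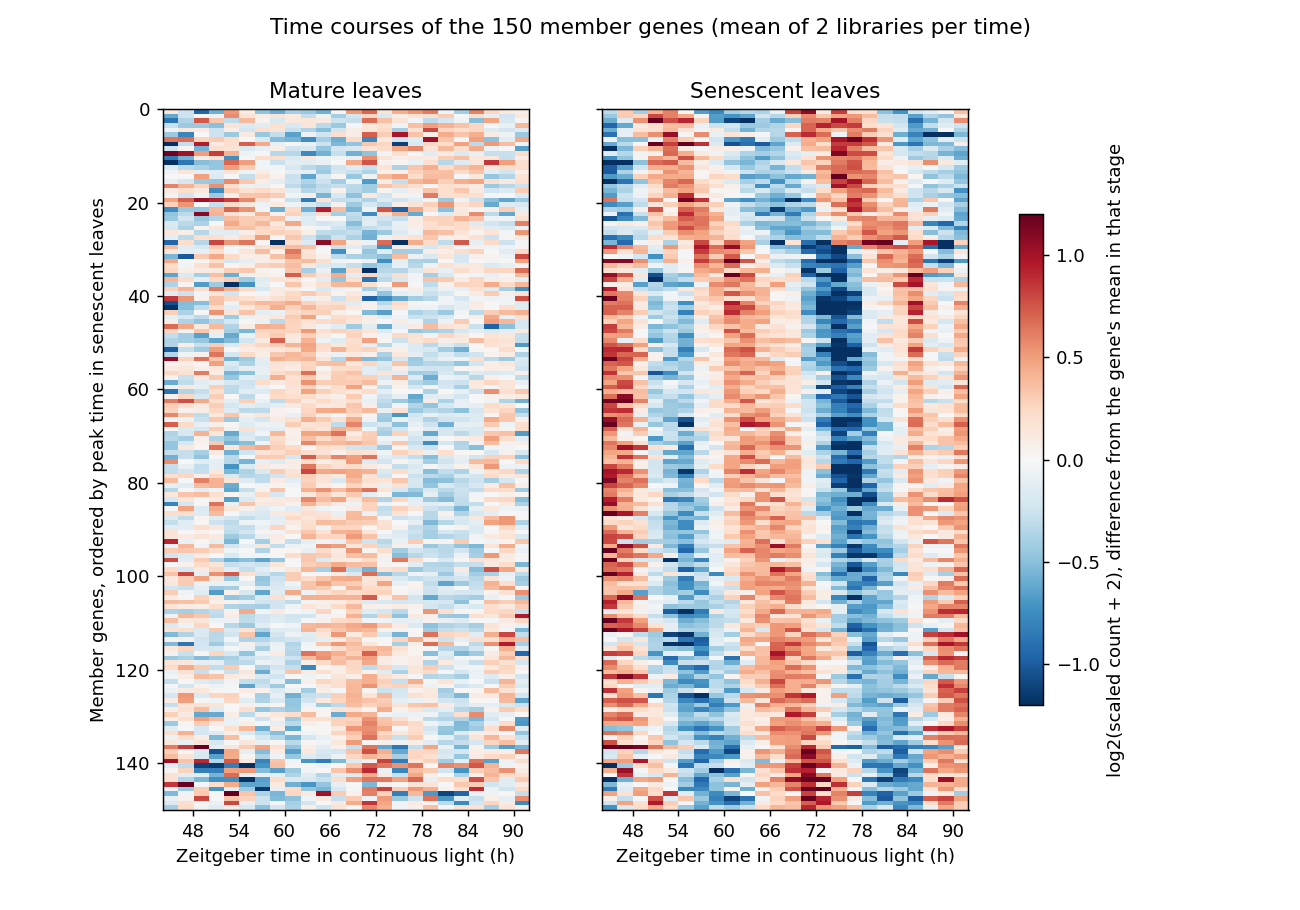
Time courses of the 150 members in mature (left) and senescent (right) leaves, from ZT45 to ZT91. Each row is a gene, ordered by peak time in senescent leaves, and colour is the mean log2(scaled count + 2) of 2 libraries minus the gene's mean in that stage. Bands of high and low values recur across both cycles in senescent leaves and are pale in mature leaves, as the selection requires.

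At the edges of the selection, neighbours inside and outside hardly differed. The last member by rank, TraesMAC4A03G02020120, had a difference of 0.5314 log2 and the next gene, TraesMAC7A03G03886920, one of 0.5298 log2. The lowest senescent peak-to-trough inside was 1.001 log2 (TraesMAC4A03G02035830) and the nearest outside 0.9998 log2 (TraesMAC4D03G02431090). The highest mature peak-to-trough inside was 0.5986 log2 (TraesMAC4A03G02207160) and the nearest outside 0.6008 log2 (TraesMAC3A03G01310710).

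The largest difference belonged to TraesMAC7D03G04477910 on chromosome 7D, with a peak-to-trough of 0.27 log2 in mature leaves and 1.86 log2 in senescent ones. Its scaled counts had a lowest, median and highest value of 23.1, 62.6 and 136 over the 48 mature libraries and of 21.8, 72.97 and 305 over the 48 senescent ones. At 3 h after subjective dawn (ZT51 and ZT75) the 4 senescent libraries read 128, 305, 167 and 116, and at 13 h (ZT61 and ZT85) they read 44.2, 21.8, 36.1 and 36.1. Every senescent value at 3 h was above every senescent value at 13 h. These were the hours of its highest and lowest senescent mean, so this separation follows in part from their choice. Hours printed for the other named genes were mostly chosen in the same way, and values at them are a description without a test. The mature libraries read 56.99, 105, 81.1 and 58.8 at 3 h and 61.7, 72.96, 54.5 and 33.1 at 13 h, which overlapped.

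TraesMAC6D03G03676360 (chromosome 6D) ran the other way round the day. At 13 h its senescent libraries read 258, 276, 303 and 295, overlapping the mature 223, 273, 200 and 240. At 3 h they read 130 and 107 in the first cycle and 52.6 and 66.2 in the second, where the mature libraries read 350, 272, 230 and 228. The 2 stages thus overlapped at the senescent peak and were apart at its trough. Lowest, median and highest were 73.8, 223 and 441 in mature and 52.6, 173 and 366 in senescent leaves. The difference in peak-to-trough was 0.69 log2 in the first cycle and 1.16 log2 in the second.

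Low values at 3 h were also seen in TraesMAC6A03G03275490 and TraesMAC7B03G04168690. In TraesMAC6A03G03275490 the senescent libraries read 367, 411, 405 and 379 at 13 h, within the mature 300, 466, 307 and 348. At 3 h they read 173, 147, 57.9 and 88.5, all below the mature 347, 381, 338 and 345. TraesMAC7B03G04168690 read 218, 312, 248 and 241 in senescent leaves at 13 h and 35.8, 49.8, 32.6 and 37.5 at 3 h, against 231, 295, 205 and 261 in mature leaves at 3 h. In both, the level at 3 h was low in senescent leaves, but the average over the 48 h was lower too. The level difference was -0.46 log2 in TraesMAC6A03G03275490 and -1.16 log2 in TraesMAC7B03G04168690 (limma, adjusted p = 1.06e-06 and 2.72e-17). The median of TraesMAC7B03G04168690 was 81.3 in senescent and 205 in mature leaves. The cycles differed, however. In TraesMAC6A03G03275490 the difference in peak-to-trough was 0.06 log2 in the first cycle, with 0.91 log2 in mature leaves, and 1.76 log2 in the second. In TraesMAC7B03G04168690 it was 0.49 log2 in the first cycle and 1.27 log2 in the second.

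TraesMAC5B03G02962880 had the largest senescent peak-to-trough of all members, 1.95 log2, with 0.52 log2 in mature leaves. Its senescent libraries read 23.2, 39.7, 32.2 and 55.5 at 7 h, below the mature 119, 74.96, 87.5 and 88.98. At 21 h they read 217 and 179 at ZT45 but 57.3 and 87.2 at ZT69, so the high value was not repeated a day later at that hour. TraesMAC6A03G03394080, a more abundant transcript, read 380, 395, 489 and 469 in senescent leaves at 7 h, below the mature 890, 1106, 706 and 1143. At 21 h it read 1586, 1908, 1283 and 1116, within the mature range of 667 to 1982.

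TraesMAC4D03G02551410 had its highest value in 1 library. It read 1699 in the senescent ZT45 replicate 1 library, 498 in the other library of that time, and 354 and 370 at ZT69. Its difference was 1.42 log2, and 1.28 log2 without the 4 libraries least like their stage, which include that one. At 13 h the senescent values were 128, 132, 152 and 124, all below the mature 269, 276, 267 and 562. TraesMAC7A03G04023300 read 195, 222, 107 and 175 in senescent leaves at 7 h, all above the mature 69.9, 86.3, 44.3 and 70.1. At 13 h it read 43.4, 33.2, 37.2 and 50.4, overlapping the mature 46.8, 45.9, 33.1 and 41.7. In this gene it was the peak, not the trough, that stood apart from mature leaves.

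TraesMAC7B03G04093690 read 9.28, 22.04, 16.7 and 27.3 in senescent leaves at 7 h, against 88.6, 72.9, 104 and 147 in mature leaves. At 19 h it read 88.7, 65.3, 89.7 and 79.9, overlapping the mature 122, 101, 36.8 and 91.2. The 2 stages were again apart at the senescent trough. TraesMAC7B03G04163610 was the least reproducible of the 10 members with the largest difference. It was listed at 0 in 1 mature library, had a replicate SD of 1.37 log2 in mature leaves and 0.84 log2 in senescent ones, and its difference in rhythm was not called (limma, adjusted p = 0.168) although its fitted difference was 1.496 log2.

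**Figure D2:**
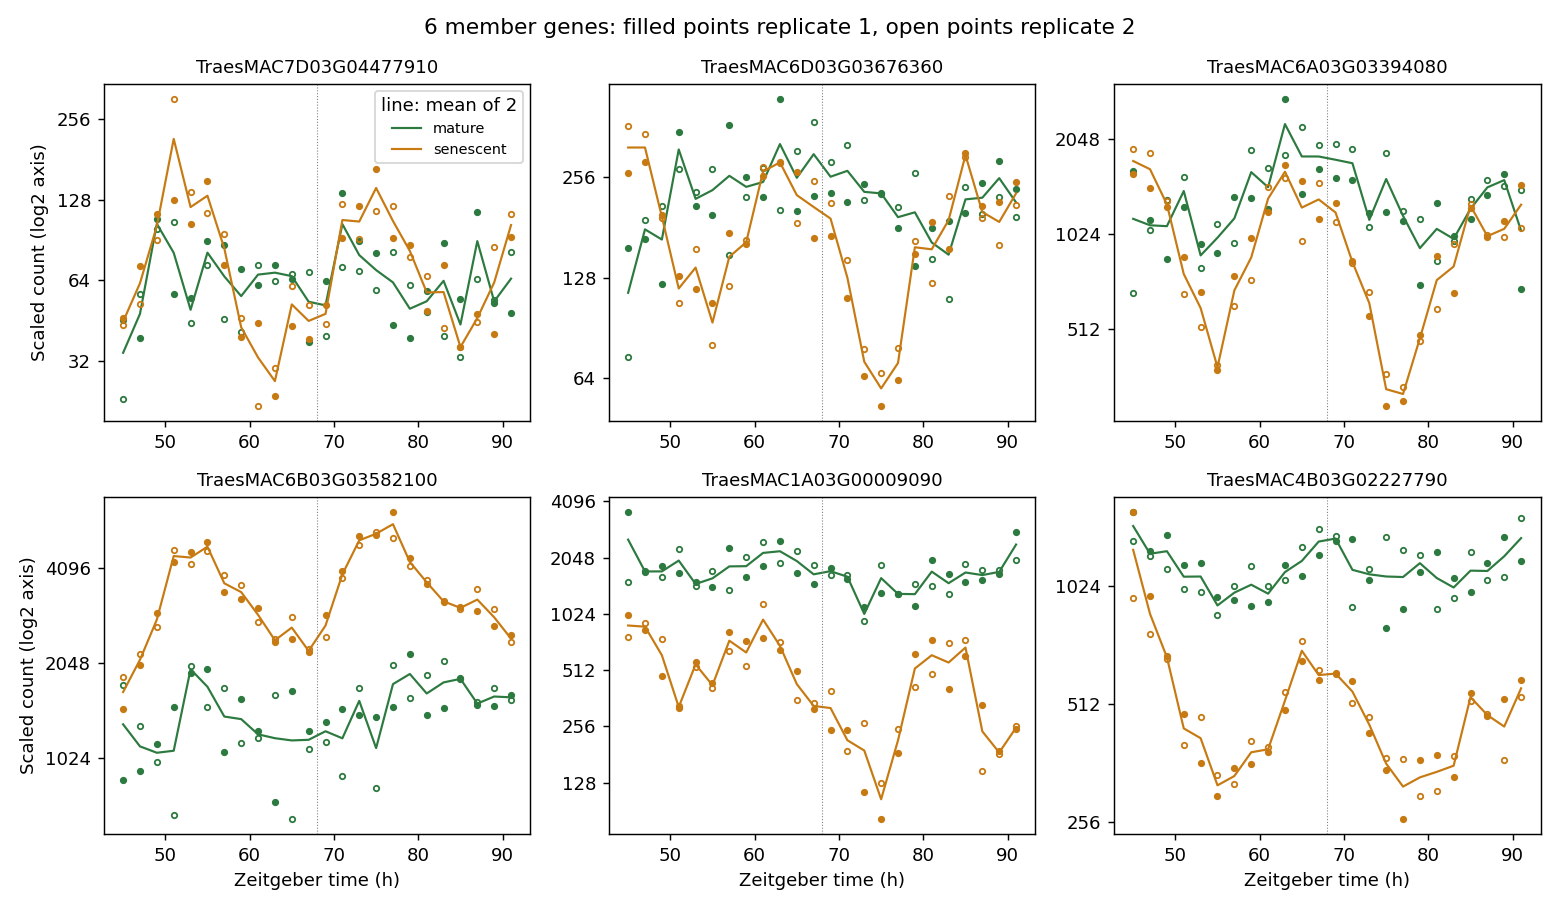
Scaled counts of 6 members by Zeitgeber time, on a log2 axis, with mature leaves in green and senescent leaves in orange. Filled points are replicate 1, open points replicate 2, lines join the mean of 2 libraries, and the dotted line separates the cycles. The senescent lines swing further than the mature ones, and TraesMAC1A03G00009090 swings by 1.63 log2 in the second cycle and 0.30 log2 in the first.

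Senescent peak times gathered in the subjective night. Of the 150 members, 41 peaked between 16 and 18 h after subjective dawn, 24 between 18 and 20 h, 21 between 20 and 22 h and 16 between 14 and 16 h. Together 102 members (68%) peaked between 14 and 22 h. Among all 3038 genes with a senescent peak-to-trough of at least 1 log2, 63.7% did, so a subjective-night peak was common to strong senescent rhythms. The fitted peaks of the members lay earlier within that span, since 27.3% of them fell between 16 and 18 h against 12.5% of the strong genes, and 16% between 18 and 20 h against 26.7%. These peaks come from the fit with a linear term, which is not independent of the 24 h curve, and its part in this was not tested. A smaller group of 24 members (16%) peaked from 2 to 8 h, beside 18.4% of the strong genes. In the mirrored set of 117 genes, with thresholds for the stages exchanged, 28.2% peaked between 14 and 22 h in mature leaves.

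**Figure D3:**
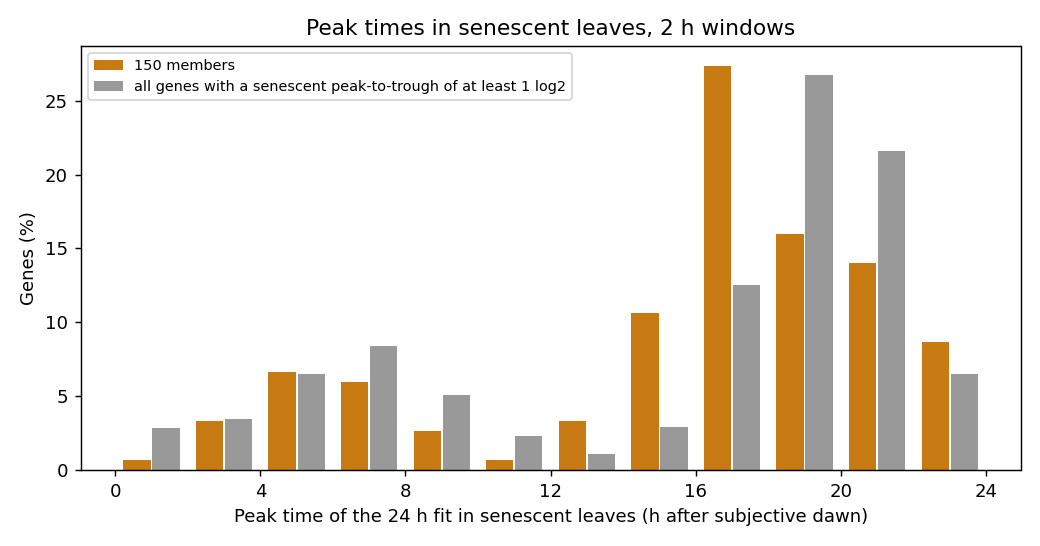
Share of genes by peak time in senescent leaves, in 2 h windows after subjective dawn. Orange bars are the 150 members and grey bars the 3038 genes with a senescent peak-to-trough of at least 1 log2. The tallest orange bar, 27.3%, is at 16 to 18 h and the tallest grey bar, 26.7%, at 18 to 20 h.

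Among the 87 members that were also called rhythmic in mature leaves, 75 had peaks within 3 h of each other in the 2 stages. In 70 the senescent peak was earlier and in 17 later, with a median shift of -1.0 h and quartiles of -2.14 and -0.36 h. The same counts were not made over all rhythmic genes. Strong rhythms of all genes peaked most often at 18 to 20 h in senescent leaves (26.7%) and at 20 to 22 h in mature leaves (26.6%). An earlier senescent peak is therefore not shown to be particular to the members. When the period was allowed to vary from 18 to 32 h, the best period of the members had a median of 22.5 h in senescent leaves, beside 23 h for the 20577 genes. In mature leaves it was 26.5 h, but 39 members then sat at an end of that range, so the mature value has little meaning. With the period set to 26 h, 93 members passed both thresholds, and with 22 h 140 did.

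The 24 h terms took up a median of 62.8% of the members' variance in senescent and 15.4% in mature leaves. For the 20577 genes these medians were 31.2 and 19.4%. A large senescent and a small mature amplitude chose the members, so their contrast is a description and carries no test. Differences between the 2 libraries of a time were larger in mature leaves: the replicate SD of the members had a median of 0.35 log2 in mature leaves and 0.24 log2 in senescent ones, beside 0.27 and 0.20 log2 for all 20577 genes. The members thus varied more between replicates than the 20577 genes in both stages, and the part of this spread in the small mature rhythm was not tested. Between pairs of members the correlation over libraries had a median of 0.28 in senescent and 0.05 in mature leaves, where shared time of day and shared libraries both enter.

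Replicates and cycles were then examined apart. With replicate 1 alone 104 members passed both thresholds, with replicate 2 alone 107, and 69 passed in each. The peak-to-trough was larger in senescent leaves for 150 of 150 members in either replicate, with a median difference of 0.77 log2 in replicate 1 and 0.72 log2 in replicate 2. The cycles were less even. In the first cycle (ZT45 to ZT67) 62 members passed both thresholds, in the second (ZT69 to ZT91) 98, and 34 in each, with median differences of 0.58 and 0.77 log2. Senescent leaves had the larger peak-to-trough for 137 members in the first cycle and 149 in the second. In 106 members the senescent peak-to-trough was larger in the second cycle than in the first, which also held for 54.6% of the 20577 genes. All of these counts reuse the libraries of the selection.

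To measure the difference in libraries that had not chosen the genes, the same rule was applied to 48 of the libraries and its 150 genes were tested in the other 48. The test (limma, adjusted p under 0.05 over all genes tested) covers any difference in the 24 h curve, and a gene counted when its amplitude was also larger in senescent leaves. Genes chosen in replicate 1 were called in replicate 2 for 27 of 150 (18%), beside 1.99% of the 20577 genes. Their median difference was 0.85 log2 in the choice and 0.54 log2 in replicate 2, where 131 were larger in senescent leaves. A senescent rhythm was called in replicate 2 for 123 of them, beside 46.5% of the 20577. Genes chosen in replicate 2 were called in replicate 1 for 18 of 150 (12%), beside 1.27%, with a median of 0.84 log2 in the choice and 0.61 log2 in replicate 1, where 139 were larger in senescent leaves. Here a senescent rhythm was called for 137, beside 47.6%. Without the 4 libraries least like their stage, the difference was called with the larger senescent amplitude for 8 genes, in place of 18. In either direction 54 of the 150 passed both thresholds in the other replicate. The difference was thus also found in leaves not used for the choice, at a smaller size, and most genes did not pass on their own. Replicates share the room and the cutting times, so a disturbance common to a time would appear in both.

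Of the genes chosen in the first cycle, 63 of 150 (42%) were called in the second, beside 6.32%. Their median difference was 0.70 log2 in the choice and 0.43 log2 in the second cycle, and 138 were larger in senescent leaves. In mature leaves their median peak-to-trough was 0.49 log2 in the choice and 0.70 log2 in the second cycle. Both thresholds were passed in the second cycle by 34 of them. A senescent rhythm was called in the second cycle for 141, beside 52.8%. The reverse did not hold on balance. Of those chosen in the second cycle, 29 of 150 (19.3%) were called in the first, beside 4.18%, but the median went from 1.04 log2 in the choice to -0.11 log2 in the first cycle, and 67 were larger in senescent leaves. A senescent rhythm was called in the first cycle for 86 of them, beside 46.7%. Their median mature peak-to-trough was 0.32 log2 in the second cycle and 0.87 log2 in the first, where 17 passed both thresholds. Without the ZT45 and ZT91 libraries the first-cycle median was 0.13 log2, and without the 4 libraries least like their stage it was 0.01 log2. The sign of this median was thus not stable. Both runs chose the genes anew, sharing 103 and 114 of the 150 with the main choice, so libraries and genes changed together. With only 1 replicate in the choice and the test, 5 or 1 genes were called from the first to the second cycle, and 0 or 2 in reverse.

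**Figure D4:**
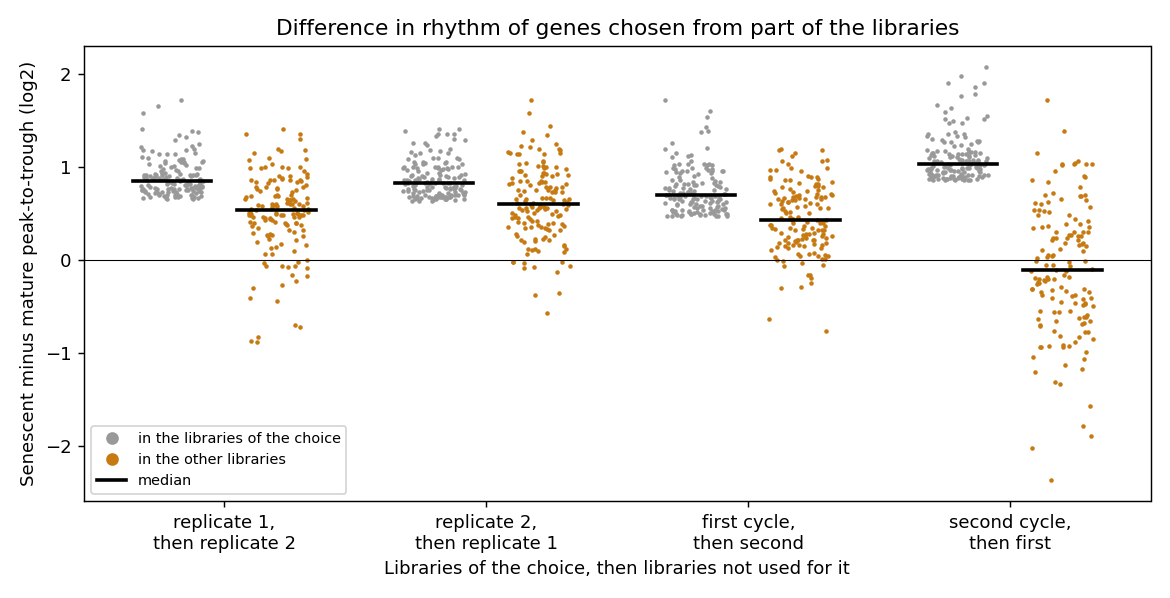
Senescent minus mature peak-to-trough, in log2, of 150 genes chosen from 48 of the libraries. Grey points are the values in the libraries that chose them, orange points those in the other 48, and bars are medians. The orange medians are 0.54, 0.61, 0.43 and -0.11 log2 from left to right, each below its grey median.

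The genes with the smallest p in these tests differed in amplitude, in peak time or in both. TraesMAC3B03G01777410, which lies just outside the set with a mature peak-to-trough of 0.62 log2, had a senescent minus mature difference of 1.08 log2 in replicate 2 after being chosen in replicate 1 (limma, adjusted p = 0.000396). Its senescent libraries read 1248, 1544, 1609 and 1343 at 21 h and 396, 389, 382 and 446 at 7 h, without overlap. The mature libraries read 747, 744, 746 and 669 at 21 h and 575, 645, 504 and 492 at 7 h, a smaller swing in the same direction. TraesMAC7D03G04326920, a member, had a difference of 0.45 log2 in replicate 2 (limma, adjusted p = 0.000617) and of 0.67 log2 in the second cycle after the first chose it (limma, adjusted p = 8.44e-06). With libraries scaled to the total, the replicate 2 value was 0.21 log2. Its fitted peak lay at 3.07 h in the mature fit and at 20.7 h in the senescent one, and the test covers such a shift of the curve too. At 17 h its senescent libraries read 154, 189, 190 and 158, all above the mature 98.0, 56.4, 105 and 75.9.

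TraesMAC3B03G01777670, also a member on chromosome 3B, was chosen in replicate 2 and had a difference of 1.15 log2 in replicate 1 (limma, adjusted p = 0.00144). In the opposite direction it was not called, with 0.77 log2 in replicate 2 (limma, adjusted p = 0.0658). TraesMAC3B03G01656740, outside the set, had a difference of 0.56 log2 in replicate 1 (limma, adjusted p = 0.00211), with senescent values of 897, 834, 640 and 694 at 7 h against 203, 270, 198 and 226 in mature leaves. At 21 h it read 341, 236, 309 and 260 in senescent and 192, 340, 143 and 175 in mature leaves. Its level was higher in senescent leaves by 1.31 ± 0.04 log2 (limma, adjusted p = 6.20e-49), and its fitted peak lay at 11.4 h in the mature fit and at 7.76 h in the senescent one. TraesMAC2A03G00587230, outside the set, had a difference of 0.70 log2 in the second cycle (limma, adjusted p = 1.23e-05). The 2 genes with the smallest p in the first cycle after choice in the second went the other way. TraesMAC7D03G04296330 had a difference of -0.83 log2 there (limma, adjusted p = 0.000537) and TraesMAC6D03G03667040 one of -0.93 log2 (limma, adjusted p = 0.000949), the larger rhythm being in mature leaves. Neither is a member.

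The average level over the 48 h was not used by the selection beyond the minimum mean, and was tested between the stages with limma. Members higher in senescent leaves numbered 52 (34.7%), beside 37.9% of the 20577 genes, and those lower numbered 77 (51.3%), beside 37%. The remaining 21 were not called. The median senescent minus mature level was -0.18 log2 for the members and 0.01 log2 for the 20577. With each library scaled to its total, differences shifted upward, the median of the 20577 genes to 0.25 log2 and that of the members to 0.06 log2, and 69 members were higher and 61 lower, beside 65.4% and 17.6% of the 20577. The median of the members lay below that of the 20577 genes under both scalings. A single factor per library moves all genes nearly alike, so that distance could hardly change. The split into higher and lower did change. Changes of at least 1 log2 were fewer, with 11 members higher and 15 lower.

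The 3 higher members with the smallest p had senescent medians above their highest mature values. TraesMAC7B03G04163500 had a lowest, median and highest scaled count of 20.2, 125 and 266 in mature and of 295, 794 and 1741 in senescent libraries, which did not overlap. Its level was higher by 2.82 ± 0.12 log2 (SE, n = 48 per stage, limma, adjusted p = 9.47e-39). TraesMAC2D03G01111110 ran from 17.8 through 49.8 to 116 in mature and from 108 through 291 to 710 in senescent leaves, an overlap of the extremes only, and was higher by 2.51 ± 0.10 log2 (limma, adjusted p = 1.25e-40). TraesMAC2A03G00708870 ran from 64.4 through 93.6 to 140 and from 136 through 206 to 437, and was higher by 1.27 ± 0.06 log2 (limma, adjusted p = 3.25e-38). For TraesMAC7B03G04163500 and TraesMAC2D03G01111110 the difference in rhythm was not called (limma, adjusted p = 0.106 and 0.0637).

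Among lower members, TraesMAC1A03G00009090 had values of 933, 1680 and 3584 in mature and of 82.1, 428 and 1151 in senescent leaves. It was lower by -2.05 ± 0.09 log2 (limma, adjusted p = 4.52e-38). TraesMAC1D03G00411980 followed a similar course, with 645, 1064 and 2139 in mature and 75.8, 384 and 757 in senescent leaves, a difference of -1.82 ± 0.09 log2 (limma, adjusted p = 3.79e-36). In TraesMAC4B03G02227790 mature values ran from 797 through 1142 to 1579 and senescent ones from 261 through 476 to 1576, with the high senescent values at ZT45, and the difference was -1.24 ± 0.05 log2 (limma, adjusted p = 3.80e-44). The ranges overlapped in all 3 genes while the medians lay well apart.

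Per length, in FPKM as deposited, TraesMAC4B03G02227790 had the highest mature level among the members, with a mean of 490 FPKM against 219 FPKM in senescent leaves. The highest senescent FPKM belonged to TraesMAC6B03G03582100, with 364 FPKM against 151 FPKM in mature leaves. This gene and TraesMAC6A03G03373880 were also the members with the highest mean scaled count in senescent leaves. TraesMAC6B03G03582100 read 4621, 4235, 6173 and 5123 at 5 h and 1466, 1854, 2916 and 2476 at 21 h in senescent leaves, without overlap. Its level was higher by 1.26 ± 0.06 log2 (limma, adjusted p = 2.64e-34). TraesMAC6A03G03373880 read 3808, 3624, 5064 and 4852 at 5 h and 777, 1396, 2072 and 1902 at 21 h, with a level higher by 0.90 ± 0.07 log2 (limma, adjusted p = 9.33e-22). Both had a senescent replicate SD under the members' median, 0.11 and 0.16 log2.

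The members also changed over the 2 days of sampling in senescent leaves. The linear term, called drift here, was downward for 63 members (42%), beside 15% of the 20577 genes, and upward for 23 (15.3%), beside 5.22%. In mature leaves it was downward for 11 (7.33%), beside 5.28%, and upward for 12 (8%), beside 3.05%. The median drift of the members was -0.15 log2 per 24 h in senescent and 0.00 log2 per 24 h in mature leaves. When the linear term was replaced by a step between the 2 cycles, 54 members were lower and 11 higher in the second cycle of senescent leaves, beside 11.3% and 2.73% of the 20577 genes. With either replicate left out, 35 to 40 were downward, beside 4.76 to 6.29%, and 4 to 7 upward, beside 0.773 to 0.831%. Linear time and the 24 h cosine are not independent over these 48 h (r = -0.34), so drift and rhythm share part of their signal.

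Tested directly, the difference in drift was called for 12 members, all with the lower slope in senescent leaves (8%, beside 3.24%), and for 0 in the other direction (beside 0.569%). The count was 14 without ZT45 and ZT91, of which 13 had the lower and 1 the higher slope in senescent leaves, and 6 without the 4 libraries least like their stage. It was 0 with a step between cycles, where 0.467% of the 20577 genes were called below and 0.0729% above. With either replicate left out it was also 0, but so was the count over all 20577 genes. TraesMAC1A03G00009090 had the steepest drift, -1.12 ± 0.12 log2 per 24 h in senescent leaves (limma, adjusted p = 3.12e-10) against -0.23 ± 0.12 in mature leaves. At 3 h its senescent libraries read 322 and 329 in the first cycle and 82.1 and 127 in the second. Fitted without a linear term, its senescent peak-to-trough was 0.30 log2 in the first cycle and 1.63 log2 in the second. The 1.58 log2 that placed it in the set came from the fit with a linear term over both cycles. TraesMAC1D03G00411980 had a drift of -0.95 ± 0.12 log2 per 24 h (limma, adjusted p = 2.91e-09) and peak-to-troughs of 0.49 and 1.85 log2.

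Upward drift was steepest in TraesMAC1A03G00182290, with 0.64 ± 0.12 log2 per 24 h (limma, adjusted p = 4.63e-05). At 21 h it read 86.9 and 160 at ZT45 and 448 and 436 at ZT69 in senescent leaves, and 98.9, 154, 410 and 422 in mature leaves, the same step in both stages. Its drift in mature leaves was 0.47 ± 0.12 log2 per 24 h (limma, adjusted p = 0.00848) and the difference between stages was not called (limma, adjusted p = 0.709). Its peak-to-trough was larger in senescent leaves in the first cycle (1.42 against 0.92 log2) but smaller in the second (0.405 against 0.68 log2). In TraesMAC7A03G03813220 the senescent drift was 0.58 ± 0.12 log2 per 24 h (limma, adjusted p = 0.000138), a call that was lost without replicate 2 while the drift was 0.57 log2 per 24 h.

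Level and drift went with peak time. Drift and peak time came from the same fit, however. Linear time was correlated there with the 24 h cosine (r = -0.34) and sine (r = -0.20). Fit error ties downward slopes to peaks from 12 to 18 h, and upward slopes to peaks from 0 to 6 h. Its part in the drift counts below was not tested. Of the 62 members that peaked between 12 and 18 h, 48 were lower in senescent leaves and 6 higher, and 48 drifted downward and 0 upward. Among all 502 strong genes with that peak window, 54.0% were lower and 65.3% drifted downward, so downward drift was frequent there in general. With a step in place of the linear term, 40 of the 62 were called downward. No share of the 502 strong genes was taken with the step, so this count has no comparison. Of the 58 members with peaks between 18 and 24 h, 29 were higher and 20 lower, with 16 upward and 12 downward drifts. Beside them, 42.2% of 1665 strong genes were higher and 37.5% lower, and 7.21% drifted upward and 23.96% downward. Of the 16 members that peaked between 0 and 6 h, 9 were higher and 5 lower, and 6 drifted upward and 0 downward. Among the 390 strong genes of that window, 37.9% were higher and 35.6% lower, and 21.03% drifted upward and 9.49% downward. Of the 14 with peaks between 6 and 12 h, 8 were higher and 4 lower, with 1 upward and 3 downward drifts. Among the 481 strong genes there, 26.4% were higher and 51.4% lower, and 4.37% drifted upward and 23.9% downward.

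**Figure D5:**
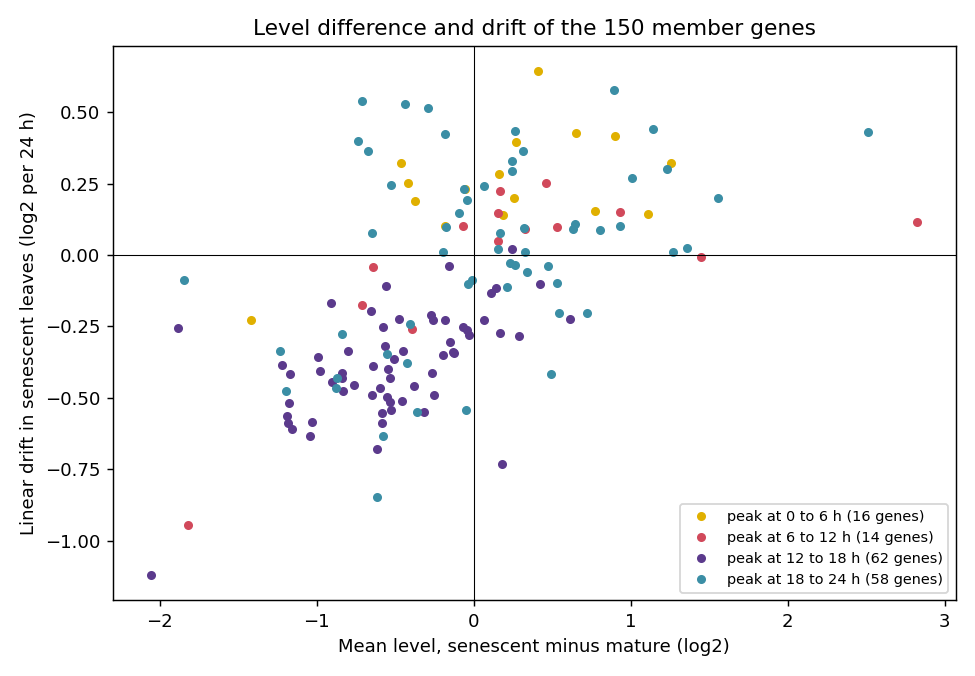
Each point is 1 of the 150 members, placed by its senescent minus mature level in log2 and its linear drift in senescent leaves in log2 per 24 h, and coloured by senescent peak time. Most of the 62 members with peaks at 12 to 18 h lie at lower left, where 48 were called lower and 48 called downward, and the other windows spread over both signs.

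Within each window, the members with the largest senescent peak-to-trough included some whose level hardly differed. TraesMAC5D03G03205260 (peak from 18 to 24 h) ran from 23.8 through 67.8 to 123 in mature and from 18.8 through 66.4 to 146 in senescent leaves, a level difference of -0.04 ± 0.10 log2 (limma, adjusted p = 0.725). At 23 h it read 146, 117, 111 and 133 and at 11 h 18.8, 28.5, 30.6 and 25.6 in senescent leaves. The mature libraries read 65.8, 93.4, 123 and 121 at 23 h and 48.8, 33.6, 23.8 and 61.5 at 11 h, which was a swing in the same direction. TraesMAC1D03G00405260 read 169, 328, 339 and 302 at 23 h and 63.02, 75.8, 96.01 and 120 at 9 h in senescent leaves, and was lower in level by -0.53 ± 0.08 log2 (limma, adjusted p = 1.56e-08).

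A second harmonic with a 12 h period, fitted beside the 24 h curve, was called for 5 members in senescent leaves (3.33%), beside 0.85% of the 20577 genes, and for 0 in mature leaves, beside 1.22%. The 2 members with the smallest p were TraesMAC3B03G01601490, with a 12 h peak-to-trough of 0.67 log2 (limma, adjusted p = 0.0068), and TraesMAC2A03G00631180, with 0.73 log2 (limma, adjusted p = 0.0372). TraesMAC2A03G00631180 read 105, 68.4, 117 and 99.4 at 13 h and 19.4, 28.4, 26.3 and 16.1 at 3 h in senescent leaves, against 173, 149, 89.9 and 155 at 3 h in mature leaves. With either replicate left out, 0 members were called, and the difference between stages in the 12 h term was not tested.

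By position, the members were spread over all 21 chromosomes, with 51 in the A, 51 in the B and 48 in the D subgenome, where the 20577 genes had 33.6, 33.2 and 33.3%. Counts per chromosome ran from 3 on 1B to 10 on 3A, 4B, 5A and 5B. A single pair of members held consecutive lines of the deposited table, TraesMAC3B03G01592040 and TraesMAC3B03G01592060, with senescent peaks at 22.2 h in both and a correlation of 0.89 over the 48 senescent libraries.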

How the data were processed

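Whole flag leaf RNA of 48 mature and 48 senescent libraries was analysed, grouped by the labels' stage, time and replicate number. The authors used bcl2fastq 2.17, STAR, Cufflinks and Cuffnorm, per the submitters' processing notes. Build, annotation version and counting settings are not given in the sources used here. The deposited table of scaled counts was treated as a signal, because at least 99.97% of values in each library were whole multiples (tolerance 0.01) of a number of its own but a few were not. Deposited FPKM values gave levels per length and 1 alternative. Values were used on a log2 scale computed here from the deposited values, as log2(scaled count + 2).

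limma 3.58.1 (with R 4.3.3) with a variance trend was fitted to all 96 libraries and 42428 genes with a mean of at least 10, with level, drift and 24 h cosine and sine by stage. Adjusted p is Benjamini-Hochberg over all genes tested, called under 0.05. Tests over a single cycle had no linear term. The code was tested on simulated data. Members, lists and tests were chosen with earlier results of these data known.

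Named genes were the 10 members with the largest difference in peak-to-trough, those with the smallest p for level (3 per direction) and drift (2 per direction), and the 2 with the largest senescent peak-to-trough per 6 h window. Added to these were the 2 with the highest senescent mean, the 2 with the smallest 12 h p, the neighbours of the thresholds and the 2 with the smallest p of each held-out test. The consecutive pair on 3B was named after its values were seen.

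Replicate numbers did not pair libraries across stages: of 48 pairs of the same time and number, 8 had a residual correlation above 0.1, with a median of 0.05. P-values measure the spread of these leaf pools around the fitted curves. That spread also holds departures of the time course from the curve, and no spread between sowings. Alternatives were pseudocounts of 1 and 8, other filters, scalings and periods, a replicate block, single replicates or cycles, and left-out end times.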

Additional observations from a re-analysis of the deposited data

Results flagged for a closer look

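In 12 members the linear drift differed between the stages (limma, adjusted p under 0.05). Of the named members, the senescent minus mature difference was -0.56 log2 per 24 h in TraesMAC6A03G03275490, -0.35 in TraesMAC4B03G02227790, -0.89 in TraesMAC1A03G00009090 and -0.72 in TraesMAC1D03G00411980. With a step between cycles, 0 members were called.

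In the libraries that did not choose the genes, the 24 h rhythm differed between the stages, with the larger amplitude in senescent leaves, for 27 genes chosen in replicate 1, 18 chosen in replicate 2, 63 chosen in the first cycle and 29 chosen in the second cycle, of 150 each. The shares over the 20577 genes were 1.99, 1.27, 6.32 and 4.18%. Genes chosen in the second cycle had a median difference of -0.11 log2 in the first, where 67 of 150 were larger in senescent leaves.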

How the results depend on the processing

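Level calls kept their counts within 1.5 times under the alternatives run, with 129 members called in the main analysis. Of the 150 members, 62 passed both thresholds in the first cycle alone, 98 in the second alone, 78 when scaled to the total, 93 with a period of 26 h and 95 without ZT45 and ZT91. With no linear term over all libraries, 104 passed. With 1 replicate left out, senescent drift was called for 39 to 47 members (4 to 7 upward, 35 to 40 downward), mature drift for 1 to 4 (0 to 2 upward, 1 to 2 downward), and the difference in drift and the 12 h term for 0. Each of those fits has fewer samples. Upward senescent drift counted 15 with no filter, 36 scaled to the total, 15 without ZT45 and ZT91 and 11 with a step between cycles. The drift difference counted 5 with no filter, 6 without the 4 libraries least like their stage and 0 with the step, and without ZT45 and ZT91 it was above mature for 1. The 12 h term counted 3 with a pseudocount of 8 and 1 with no filter. With a replicate block, level was called for 129 members, senescent drift for 85, mature drift for 23 and the drift difference for 12, although the numbers did not pair libraries.

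In the held-out tests, the count from replicate 1 to 2 was 17 with no filter. From replicate 2 to 1 it was 8 with no filter, 11 scaled to the total and 8 without the 4 libraries, where the median was 0.54 log2. From the first cycle to the second it was 40 scaled to the total, 40 without ZT45 and ZT91, and 1 to 5 with 1 replicate, with medians of 0.30 to 0.36 log2. From the second to the first it was 16 without ZT45 and ZT91 and 0 to 2 with 1 replicate. The median there was -0.22 log2 scaled to the total, 0.13 log2 without ZT45 and ZT91, 0.013 log2 without the 4 libraries and -0.059 to 0.019 log2 with 1 replicate. Apart from fewer samples or genes, the cause was not tested. The alternatives with the 4 libraries, the step, and end times or single replicates in the cycle tests were chosen after seeing the data. edgeR on recovered reads was not run, because a few deposited values are fractional. Low members, near a scaled count of 50, carry the widest counting error.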
